A study of Arabidopsis thaliana with 12 samples.

Results

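The 60 genes described here gave the brightest signals among named genes on an Arabidopsis thaliana expression array, once genes that differed repeatedly by 2-fold or more between the toc132 mutant and the wild type (WT) had been set aside. They are 60 of the 691 genes that have a probe of their own on this array. Of 3439 probes, 692 were annotated with exactly 1 gene, and 587 of these were above 0 in all 12 samples. Values were put on the log2 scale and quantile normalised, which gives each sample the same distribution. A probe was left out if the mean of toc132 minus that of WT was 1 or more (log2, 2-fold) either way, with the same sign, in numbers 3 and 4 and again in numbers 5 and 6. This removed 104 probes, and 9 further probes, listed one by one in the rule, were left out as well. The members were chosen by their mean deposited intensity, as the 60 highest of the remaining 474. Their brightness and their limited difference in numbers 3 to 6 are therefore a description and not findings.

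The groups were 6 samples of the toc132 mutant and 6 of WT, both of ecotype Columbia 0 and numbered 1 to 6, and total RNA was measured. The labels describe toc132 as impaired in moving proteins across the outer envelope of the chloroplast, and give no allele, organ or age. Nothing in them states that each sample was grown separately, so a p-value here reflects the spread among these samples, part or all of which may be technical. Intensities ran from 0 to 100 in arbitrary units and summed to 3619 to 3712 per sample in toc132 and 3536 to 3857 in WT, and the number of arrays limits the precision. Samples 1 and 2, 3 and 4, and 5 and 6 of a group resemble each other closely, which is seen in the data and not stated in the labels, and they are called pairs of numbers. Of 19 marker genes of plant organs, 0 had a probe of their own, so the organ could not be checked.

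TOC132 is a receptor that hands newly made preproteins from the cytosol to the import channel of the chloroplast envelope. Most chloroplast proteins are encoded in the nucleus and enter by such receptors. Among the members are genes for the chloroplast NADH dehydrogenase-like (NDH) complex, which returns electrons to the plastoquinone pool, for the malate valve, which exports reducing power, and for pentatricopeptide repeat (PPR) and mTERF proteins, families that act on organelle nucleic acids. Others belong to hormone, stress, cell wall and ubiquitin pathways. The families given for genes without a symbol are background knowledge.

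All 60 members are protein-coding genes, and 9 carry a symbol in the RefSeq table (assembly TAIR10.1). Their mean intensity lay between 1.51 and 55.4, with a median of 2.25, against a median of 0.494 over all probes. Only 6 members exceeded 10, and 51 were under 5. Together they made up 6.26% to 8.99% of the summed intensity in toc132 samples (median 8.06%) and 8.21% to 9.46% in WT samples (median 8.51%). The groups overlap there, although toc132 samples 1 and 2, at 6.26% and 6.48%, lay lowest. At the limit of brightness, AT3G51500, AT4G27250 and LpxA were the last members with means of 1.65, 1.61 and 1.51, and AT1G03660, AT3G08000 and AT4G39570 the first outside with 1.51, 1.46 and 1.45. At the limit of difference, AT3G51500 (-2.28 in numbers 3 and 4, -0.94 in 5 and 6) and AT5G63290 (0.93 and 2.25) were kept. Of 11 brighter probes left out for their difference, the nearest to the limit were AT3G47650 (1.005 and 1.19) and DRT101 (-1.06 and -2.16).

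The members are not free of differences of 2-fold. Over all samples 3 members stood at least 2-fold higher in toc132, where 9.36% of the 2907 probes above 0 in all samples did, and 0 stood at least 2-fold lower, where 4.92% did. In at least 1 pair of numbers, 25 of the 60 members differed by 2-fold or more, where 54.2% of those probes did. The choice of members limits these counts. Differences below are toc132 minus WT on the normalised log2 scale unless another scale is named, and intensities are as deposited, given as the lowest, median and highest of 6 samples.

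AT2G27290 had the highest mean of all members, with an intensity of 31.3, 43.9 and 68.4 in toc132, against 34.5, 52.4 and 100 in WT. The highest values of both groups belonged to number 6, the WT value stood at the top of the scale, where 3 probes of that sample lie, and the groups overlap. Its difference over all samples was -0.14 ± 0.29 (SE), lower in toc132 under each of 4 scalings. In numbers 1 and 2 it was 0.56 after quantile normalisation and 0.66 after cyclic loess, but -0.35 in the values as deposited and -1.06 with median centring.

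AT3G09850, a gene for a protein with a G-patch, a motif found in RNA-binding proteins, had 13.6, 21.2 and 53.6 in toc132, against 21.1, 26.9 and 43.6 in WT. Here toc132 samples 1 and 2 were the lowest of all and toc132 samples 3 and 4 the highest. AT4G31530, of a family with an NAD(P)-binding fold, had 14.5, 24.3 and 32.6 in toc132, against 24.4, 31.3 and 63.3 in WT. The groups overlap, but after quantile normalisation toc132 was lower for each of the 6 numbers, with a mean difference of -0.35 ± 0.27 (SE, limma adjusted p = 0.408). In numbers 3 and 4 its difference turned to 0.44 with median centring.

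**Figure D1:**
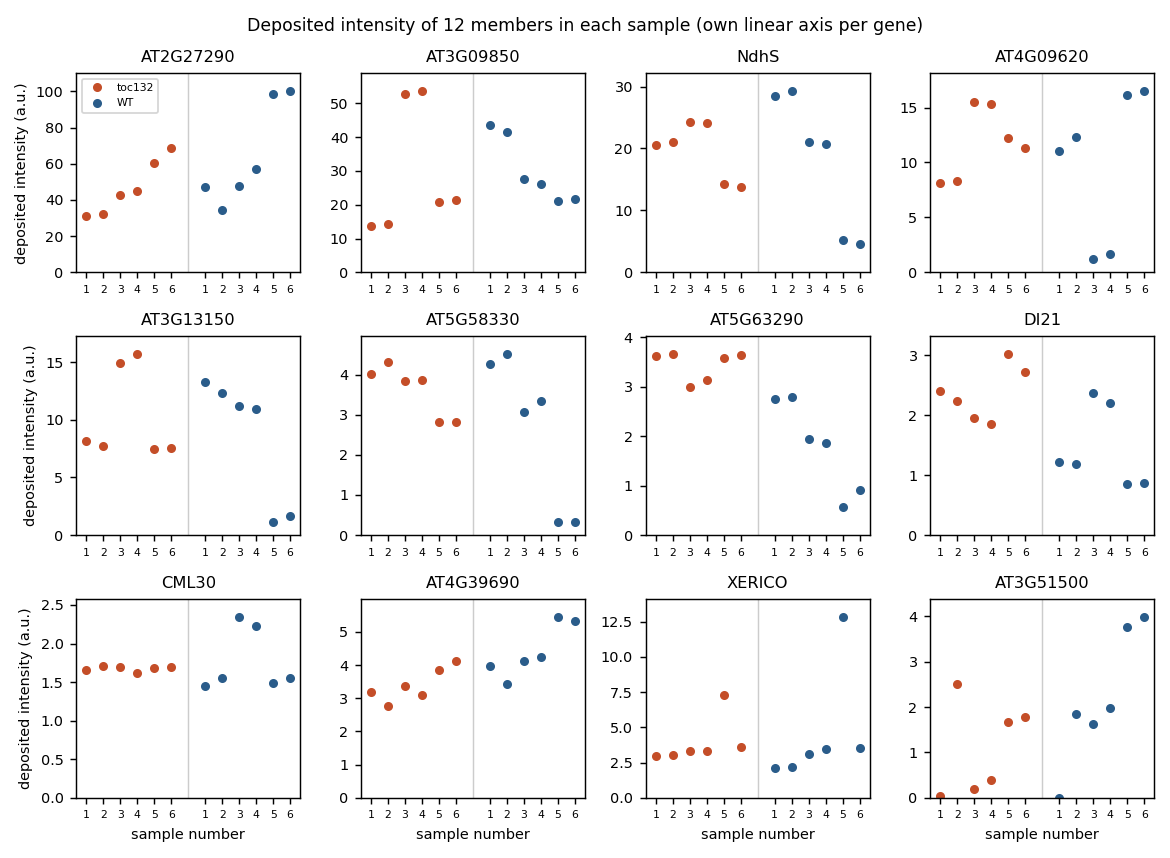
Deposited intensity in arbitrary units (vertical axes, linear, a separate one for each gene) of 12 members in each sample, with toc132 numbers 1 to 6 on the left and WT numbers 1 to 6 on the right of each panel. Each point is 1 sample. Samples of a pair of numbers lie close together in most panels, while XERICO in number 5 (7.26 in toc132, 12.8 in WT) and AT3G51500 in number 1 (0.0306 in toc132, 0.00207 in WT) stand away from their neighbours in both groups.

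The genes of plastid function among the members were NdhS, CUTA, AT5G58330, AT4G27700 and FZL. Over all samples 3 had a higher and 2 a lower mean in toc132, with a median difference of 0.06 against -0.05 over all probes, and 0 passed the test. NdhS, a peripheral subunit of the NDH complex, had 13.8, 20.7 and 24.3 in toc132, against 4.54, 20.9 and 29.2 in WT. The medians were close, and WT samples 5 and 6 (5.13 and 4.54) lay far under the other 10 samples. Its difference was 1.66 in numbers 5 and 6, -0.25 in 3 and 4, and 0.39 in 1 and 2. In the values as deposited it turned to -0.48 in 1 and 2 and 0.21 in 3 and 4, and with median centring to -1.19 in 1 and 2 and 0.76 in 3 and 4.

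AT5G58330, the NADP-dependent malate dehydrogenase of the malate valve, showed the same low pair. Its intensity was 2.81, 3.85 and 4.30 in toc132, against 0.333, 3.21 and 4.51 in WT, where samples 5 and 6 (0.333 and 0.334) were the lowest of 12. It stood at 2.20-fold of WT over all samples, with a difference of 1.14 ± 0.64 (SE) and an adjusted p of 0.262 in limma. The difference was 0.17 and 0.36 in numbers 1 and 2 and in 3 and 4, and 2.89 in 5 and 6. In numbers 1 and 2 it turned to -0.08 as deposited, -0.79 with median centring and -0.08 with cyclic loess.

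CUTA, the plant relative of a bacterial protein of metal tolerance, had 2.57, 3.67 and 4.32 in toc132, against 3.82, 4.57 and 6.38 in WT. The groups overlap, and after quantile normalisation toc132 was lower within each of the 6 numbers, while with median centring the difference in 3 and 4 was 0.48. FZL, a dynamin-like GTPase that shapes thylakoid membranes, stood at 1.59, 1.89 and 2.38 in toc132 and 1.78, 1.96 and 2.30 in WT. Its difference was 0.06 and turned to -0.01 as deposited, -0.10 with median centring and -0.08 with cyclic loess. AT4G27700, a protein with a rhodanese domain, differed by -0.12 ± 0.25 (SE).

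Other genes tied to the NDH complex had dimmer probes. The list of 6 was drawn up by gene symbol after the array's gene names had been seen, and held NdhS, NdhN, CRR21, OTP85, CRR41 and PIFI. After quantile normalisation, 46.5% of the 2907 probes above 0 in all samples had a higher mean in toc132. All 6 genes of the list had a higher mean in toc132 over all samples under each of the 4 scalings, and 0 of 6 passed the limma test. For PIFI this rests on the 9 samples above 0, with a mean intensity of 0.0265 over all 12 and the zeros left out as missing. The largest differences of the 6 were 0.83 ± 0.60 for CRR41, an assembly factor, and 0.82 ± 0.30 for CRR21, an RNA editing factor (SE, limma adjusted p = 0.370 and 0.133). That of CRR41 was 2.02 in numbers 3 and 4 and 0.51 in 5 and 6, where its WT samples lay 2.76 apart. NdhN, a subunit of the complex like NdhS, gave 1.16 in numbers 1 and 2, -1.47 in 3 and 4 and 0.97 in 5 and 6. In numbers 1 and 2, NdhN and CRR21 passed (limma adjusted p = 0.0278 and 0.0378), where 18.8% of 3105 probes did, and 0 probes passed there with the replicate number as a block. PIFI, at 0 in WT sample 1, was not tested there. After quantile normalisation OTP85 (-0.15), CRR41 (-0.03) and PIFI (-0.53) were lower in toc132 in numbers 1 and 2, while NdhS, NdhN and CRR21 were higher. In the values as deposited OTP85 (0.69), CRR41 (0.62) and PIFI (0.67) were higher in that pair, where the median over the 2907 probes was 0.68. With median centring and cyclic loess OTP85, CRR41 and PIFI were lower there. NdhS was lower there as deposited (-0.48) and with median centring (-1.19), while NdhN and CRR21 were higher under the 4 scalings.

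RNA-related genes numbered 7, namely AT3G09850, 3 PPR genes, an mTERF gene, a gene of the SpoU family of RNA methyltransferases and one of the pseudouridine synthase family. Of the 7, 3 had a higher and 4 a lower mean in toc132, with a median difference of -0.19, and 0 passed over all samples. AT4G09620, the mTERF gene, had 8.10, 11.8 and 15.5 in toc132, against 1.19, 11.7 and 16.5 in WT. The lowest values were those of WT samples 3 and 4 (1.19 and 1.63), where every other sample was at 8.10 or more. Its difference was 3.42 in numbers 3 and 4, against 0.00 in 1 and 2 and -0.54 in 5 and 6.

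AT3G13150, a PPR gene, had 7.47, 7.93 and 15.7 in toc132, against 1.14, 11.1 and 13.2 in WT. For this gene WT samples 5 and 6 (1.14 and 1.61) stood low, and the difference was 2.36 there, -0.21 in 3 and 4 and -0.10 in 1 and 2. In 3 and 4 it turned to 0.46 as deposited, 1.01 with median centring and 0.09 with cyclic loess. AT3G26630, also a PPR gene, varied less, with 9.41, 12.4 and 17.8 in toc132 against 8.61, 10.1 and 11.4 in WT. The groups overlap, and the difference of 0.39 ± 0.19 (SE) had a limma adjusted p of 0.221. AT4G21170, the third PPR gene, had 0.573, 0.750 and 3.12 in toc132, against 0.560, 1.15 and 9.42 in WT. Both highest values were in number 6, while number 5 had 1.37 in toc132 and 1.73 in WT.

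AT2G19870, the SpoU-type gene, gave 0.68 in numbers 1 and 2, -0.80 in 3 and 4 and -0.996 in 5 and 6. The pseudouridine synthase gene AT4G21770 had the lower value in toc132 within every number (-0.48 ± 0.38, SE).

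Stress, hormone and signalling genes also stood among the members. XERICO, a RING-H2 protein that raises abscisic acid levels, had 2.98, 3.34 and 7.26 in toc132, against 2.12, 3.26 and 12.8 in WT. Both highest values came from number 5, and number 6 stood at 3.61 in toc132 and 3.51 in WT. Its difference of 0.09 turned to -0.04 with median centring and -0.07 with cyclic loess.

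DI21, a drought-induced gene, had 1.85, 2.31 and 3.02 in toc132, against 0.850, 1.21 and 2.37 in WT. WT samples 3 and 4 (2.37 and 2.20) reached into the toc132 range and the other 4 WT samples lay under it. DI21 stood at 1.78-fold of WT, with a difference of 0.83 ± 0.26 (SE, limma adjusted p = 0.119). AT4G31470, of the family that holds the pathogenesis-related protein PR-1, differed by -0.21 ± 0.27 (SE).

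The 3 signalling genes were the kinase genes AT3G57120 and AT2G39360 and the calmodulin-like CML30. CML30 was the steadiest of the 60 members, with a range of 0.49 over the 6 means by group and pair of numbers. Its intensity was 1.62, 1.69 and 1.71 in toc132, against 1.45, 1.55 and 2.35 in WT. The 6 toc132 values were nearly equal, and WT samples 3 and 4 (2.35 and 2.23) stood above all others. AT3G57120 differed by 0.42 ± 0.23 (SE) and AT2G39360 by 0.38 ± 0.23 (SE). The bHLH transcription factor gene AT4G00870 had 2.11, 2.33 and 2.74 in toc132, against 1.74, 3.79 and 5.64 in WT, with a difference of -1.33 in numbers 3 and 4.

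Of the ubiquitin pathway, XERICO, the F-box gene AT4G39760 and the U-box gene AT5G40140 were members, and 0 of the 3 passed over all samples. After quantile normalisation all 3 had a higher mean in toc132, although XERICO was lower with median centring and cyclic loess. AT4G39760 stood at 1.74-fold of WT (0.80 ± 0.43, SE), and AT5G40140 differed by 1.95 in numbers 5 and 6 and -0.64 in 3 and 4.

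The 3 cell wall and glycosyltransferase genes were AT4G19900, AT4G18180 and AT4G38040, and 0 of them passed. AT4G38040, of the exostosin family, had 1.56, 1.84 and 2.01 in toc132, against 2.21, 2.46 and 3.33 in WT. The groups did not overlap, and the difference was -0.46 ± 0.18 (SE, limma adjusted p = 0.150). AT4G18180, of the pectin lyase-like family, differed by 1.72 in numbers 5 and 6, where WT had 1.55 and 1.38, and by -0.43 and -0.18 in 3 and 4 and in 1 and 2. With median centring it was 0.25 in 3 and 4. AT4G19900 differed by 1.07 in numbers 3 and 4.

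The members with the largest higher means in toc132 were AT5G63290, AT5G58330, AT5G52810, AT4G09620 and DI21. AT5G63290 encodes a radical SAM protein related to the bacterial oxygen-independent coproporphyrinogen oxidase, and had 2.99, 3.60 and 3.66 in toc132, against 0.563, 1.91 and 2.79 in WT. All 6 toc132 values lay above all 6 WT values, and it stood at 2.34-fold of WT (1.23 ± 0.36, SE, limma adjusted p = 0.119). AT5G52810, a reductase of pipecolic acid synthesis, had 1.91, 2.27 and 2.35 in toc132, against 0.307, 1.64 and 2.12 in WT. The lowest values were again WT samples 5 and 6 (0.467 and 0.307). It stood at 2.1-fold of WT (1.07 ± 0.43, SE).

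The members with the largest lower means were AT1G03810, MAMI, AT2G29870, AT1G01500 and AT2G33180. AT1G03810 had 0.995, 1.08 and 1.40 in toc132, against 1.33, 2.14 and 3.45 in WT. After quantile normalisation its groups did not overlap, while as deposited WT samples 1 and 2 (1.33 and 1.39) lay beside toc132 samples 3 and 4 (1.36 and 1.40). It stood at 0.537-fold of WT (-0.90 ± 0.26, SE, limma adjusted p = 0.119), and its 3 pairs of numbers gave -0.88, -1.01 and -0.80.

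AT1G01500, of a dehydrogenase-like family, had 0.980, 1.29 and 1.64 in toc132, against 1.83, 2.01 and 3.49 in WT. Its groups did not overlap (-0.72 ± 0.20, SE). MAMI, a membrane-associated mannitol-induced protein, had 0.713, 1.42 and 1.51 in toc132, against 0.687, 1.99 and 7.12 in WT, where samples 5 and 6 (4.01 and 7.12) were the highest. The aquaporin-like AT2G29870 differed by -1.49 in numbers 3 and 4 and by -0.02 in 1 and 2.

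Over all samples 25 members had a higher and 35 a lower mean in toc132, where 46.5% of probes were higher and 53.5% lower. With limma and Benjamini-Hochberg adjustment, 0 of the 60 members passed a threshold of 0.05, where 0% of the 3190 probes tested did. At an unadjusted p under 0.05 there were 11 members, where 25.3% of probes were under it. With the replicate number as a block, 1 member passed, AT1G03810 (limma adjusted p = 0.0464), where 0.658% of probes did. Groups without overlap after quantile normalisation were found for 1 member higher (AT5G63290) and 3 lower (AT4G38040, AT1G01500 and AT1G03810) in toc132, where 1.17% and 1.44% of probes had none. Without WT sample 1, or without WT sample 2, limma called 3 members (5%), AT5G63290, AT1G01500 and AT1G03810 in both cases, where 11.5% of probes were called without WT sample 1 and 13% without WT sample 2. This comparison was used in choosing the members, so nothing is read from these counts.

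**Figure D2:**
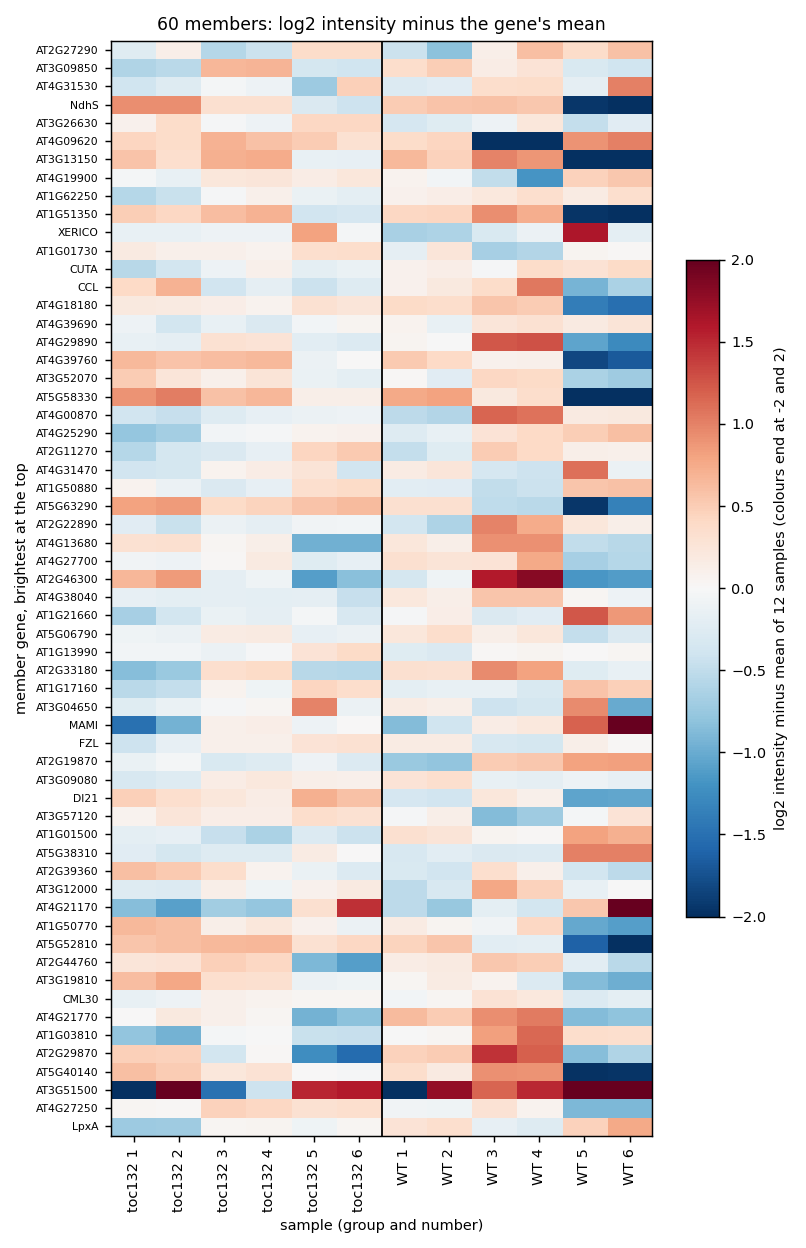
Log2 intensity after quantile normalisation minus the gene's mean over 12 samples (colour, ending at -2 and 2) for the 60 members (rows) in 6 toc132 and 6 WT samples (columns). The samples of a pair of numbers share their colours in most rows, and WT samples 5 and 6 hold the lowest of the 6 means for 22 members and the highest for 18.

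The members varied unevenly over the pairs of numbers. WT samples 5 and 6 had the lowest of the 6 means by group and pair for 22 of the 60 members (36.7%) and the highest for 18 (30%), where 27.6% and 28.8% of the 2907 probes above 0 in all samples did. WT samples 3 and 4 had the highest mean for 22 members (36.7%, against 23.9% of those probes). A difference of 2-fold or more in numbers 5 and 6 was seen for 12 members higher in toc132 (19.6% of probes) and 3 lower (20% of probes). The 12 were NdhS, AT3G13150, AT1G51350, AT4G18180, AT4G39760, AT5G58330, AT5G63290, DI21, AT1G50770, AT5G52810, AT5G40140 and AT4G27250. In all 12 the lowest of the 6 means was that of WT samples 5 and 6, which follows in part from their choice by that difference. The share over all probes was not computed for this count. In numbers 3 and 4 a difference of 2-fold or more was seen for 2 members higher (14% of probes) and 6 lower (14.2% of probes). In 1 and 2 it was seen for 1 higher (4.2% of probes) and 2 lower (3.13% of probes). Numbers 3 to 6 were used in choosing the members, so the counts there are a description. AT1G51350, which codes for a protein with ARM repeats, had 3.20, 4.81 and 6.80 in toc132, against 0.982, 5.45 and 6.66 in WT, with 1.03 and 0.982 in WT samples 5 and 6.

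The same direction in all 3 pairs of numbers was seen for 9 members higher in toc132, where 19.1% of probes did, and for 13 lower, where 18.9% did. The range over the 6 means had a median of 1.34 over the members and 1.62 over those 2907 probes. The dropping rule used numbers 3 to 6 and limits both the shared directions and the range. These comparisons with all probes are therefore a description. The widest ranges were those of AT3G51500 (5.34), AT4G09620 (3.74), AT5G58330 (3.72) and AT3G13150 (3.45). The narrowest after CML30 were AT4G39690 (0.50), AT3G09080 (0.59) and AT1G13990 (0.59).

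AT4G39690, a protein of the contact sites of mitochondrial membranes, had 2.77, 3.28 and 4.12 in toc132, against 3.43, 4.20 and 5.45 in WT. The groups overlap, and after quantile normalisation toc132 was lower within each number (-0.31 ± 0.17, SE), while with median centring the difference in 3 and 4 was 0.17. AT3G09080, a WD40 repeat protein, had 1.64, 1.94 and 2.0 in toc132, against 1.76, 1.96 and 2.19 in WT. AT1G13990 had 1.76, 2.03 and 2.73 in toc132, against 1.52, 2.31 and 2.48 in WT. Both overlap widely between the groups.

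**Figure D3:**
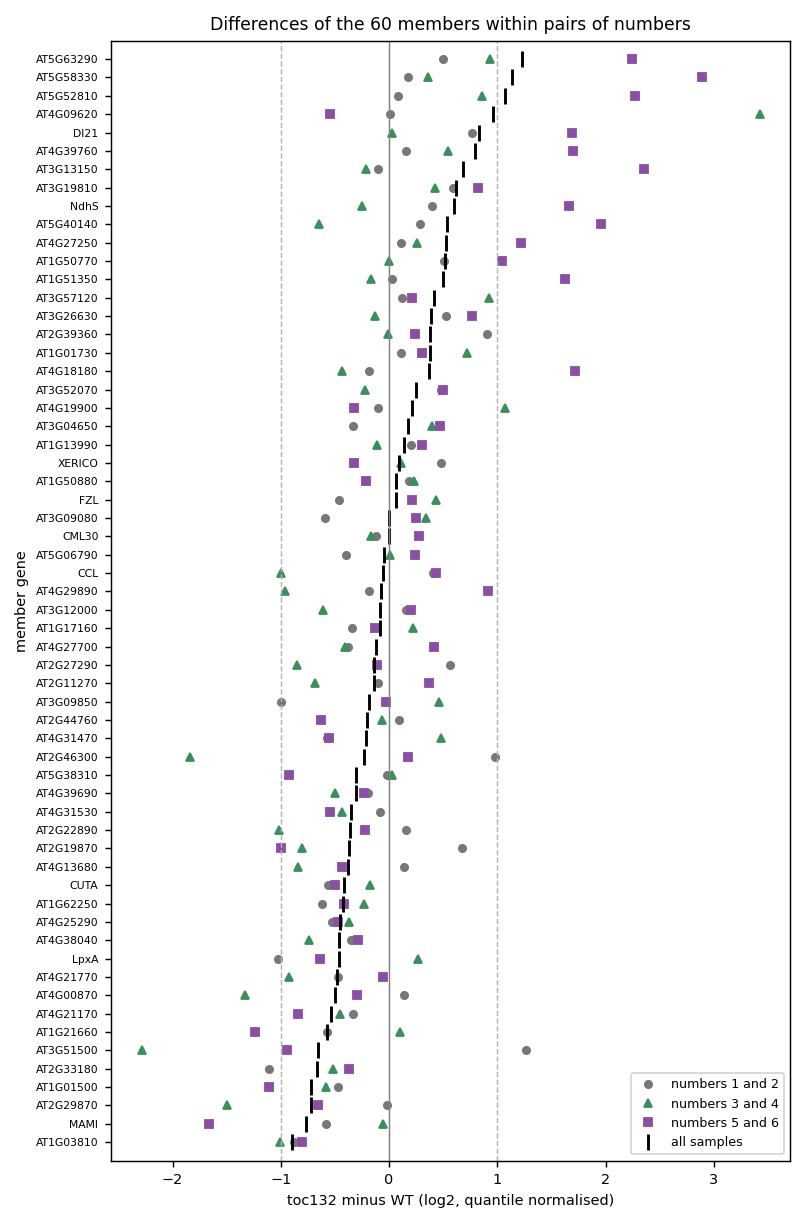
Difference toc132 minus WT (log2, horizontal axis) of each member within numbers 1 and 2, 3 and 4, and 5 and 6 and over all samples (bars), with dashed lines at 2-fold. For AT5G58330 the 3 pairs give 0.17, 0.36 and 2.89, and for AT4G09620 they give 0.00, 3.42 and -0.54.

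Numbers 1 and 2 were not used to set aside probes for their difference, so toc132 and WT could be tested there, as 2 samples against 2. Limma called 18 of the 60 members (30%), 8 higher and 10 lower in toc132, where 18.8% of 3105 probes were called (9.76% higher and 9.08% lower). With the replicate number as a block 0 members and 0 of the 3105 probes passed (limma, smallest adjusted p = 0.0654), although 32 members and 1278 probes had an unadjusted p under 0.05. Whether the calls depend on single samples cannot be decided, because leaving out 1 of the 4 samples leaves 1 sample in a group. Counts from such fits are listed only with the other processing settings, and nothing is read from them.

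Among the called members, those lower by the largest differences were AT2G33180, LpxA, AT3G09850 and AT1G03810. AT2G33180 had 1.28 and 1.38 in toc132 samples 1 and 2, against 2.24 and 2.28 in WT samples 1 and 2, a difference of -1.11 ± 0.09 (SE). LpxA, an acyltransferase of a lipid A-like pathway, had 1.05 and 1.06 in toc132, against 1.51 and 1.59 in WT (-1.02 ± 0.09, SE). AT1G03810 had 1.08 and 0.995 in toc132, against 1.33 and 1.39 in WT (-0.88 ± 0.10, SE). Both samples of toc132 lay under both of WT for these genes, which largely follows from their choice among the called members. In numbers 3 and 4 LpxA differed by 0.26 after quantile normalisation and by -0.16 as deposited, while AT2G33180 and AT1G03810 stayed lower in toc132. The G-patch gene AT3G09850 had 13.6 and 14.2 in toc132, against 43.6 and 41.5 in WT (-0.997 ± 0.10, SE). In numbers 3 and 4 it lay the other way, with 52.7 and 53.6 in toc132 against 27.6 and 26.2 in WT. The limma adjusted p was 0.0278 for AT2G33180, LpxA and AT3G09850 and 0.0304 for AT1G03810.

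Among the called members, those higher by the largest differences were AT2G46300, AT2G39360, DI21 and AT2G19870, and each was higher in toc132 under the 4 scalings. AT2G46300, of a family of hydroxyproline-rich glycoproteins, had 2.79 and 3.19 in toc132, against 1.31 and 1.6 in WT (0.98 ± 0.15, SE). In numbers 3 and 4 the order was opposite, with 1.53 and 1.65 in toc132 against 5.27 and 6.06 in WT. The kinase gene AT2G39360 had 2.57 and 2.50 in toc132, against 1.28 and 1.21 in WT (0.90 ± 0.09, SE). In both genes the 2 groups lay apart in numbers 1 and 2, which largely follows from their choice among the called members. DI21 had 2.40 and 2.23 in toc132, against 1.22 and 1.19 in WT (0.77 ± 0.10, SE). AT2G19870 had 1.70 and 1.79 in toc132, against 0.884 and 0.846 in WT (0.68 ± 0.09, SE). The limma adjusted p was 0.0372 for AT2G46300, 0.0278 for AT2G39360, 0.0330 for DI21 and 0.0343 for AT2G19870.

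The scaling between samples moved the members in each pair of numbers. In numbers 1 and 2 their median difference was -0.01 after quantile normalisation, 0.00 after cyclic loess, -0.05 in the values as deposited and -0.76 with median centring. Over the 2907 probes above 0 in all samples, it was 0.07 after quantile normalisation, 0.02 after cyclic loess, 0.68 as deposited and -0.03 with median centring. Quantile normalisation gave 30 members a higher mean in toc132 (55.8% of probes) and 30 a lower one (44.2% of probes), and median centring gave 55 a lower one (51.5% of probes). In the values as deposited limma called 14 members higher (62.7% of probes) and 16 lower (5.28% of probes). With median centring it called 0 higher (9.66% of probes) and 38 lower (18.6% of probes), and with cyclic loess 5 higher (4.67% of probes) and 5 lower (6.51% of probes).

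In numbers 3 and 4 the members' median was -0.17 after quantile normalisation, with 23 higher (43.7% of the 2907 probes), and 0.28 with median centring, with 41 higher (50.2%). In numbers 5 and 6 it was 0.07 after quantile normalisation, with 30 higher (49%), and -0.30 with cyclic loess, with 18 higher (46.7%). The direction was the same under the 4 scalings for 32 members in numbers 3 and 4 (76.1% of those probes) and 48 in 5 and 6 (92.9%).

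The direction in numbers 1 and 2 was the same under the 4 scalings for 27 members, 5 higher (39.2% of probes) and 22 lower (9.95% of probes). The limma call was kept under all 4 scalings by 0 higher members (3.41% of probes) and 5 lower ones (8.33% of members, 2.54% of probes), which were AT2G33180, LpxA, AT3G09850, AT1G03810 and AT1G62250. Before scaling, the log2 medians were -0.63 and -0.62 in toc132 samples 1 and 2, against -1.34 and -1.34 in WT. The distances between quartiles were 1.56 and 1.59 against 1.92 and 1.95. The members were chosen for brightness, so these shares are not a like comparison with all probes. The part of sample shape was not tested. AT1G62250 had 3.12 and 3.38 in toc132 samples 1 and 2, against 5.52 and 5.59 in WT samples 1 and 2, and after quantile normalisation toc132 had the lower value within every number. With median centring its difference in numbers 3 and 4 turned to 0.52. Over all samples 56 of the 60 members kept their direction under the 4 scalings, 21 higher and 35 lower. The share over all probes was not computed for this count, so it is not read as a trait of the members.

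**Figure D4:**
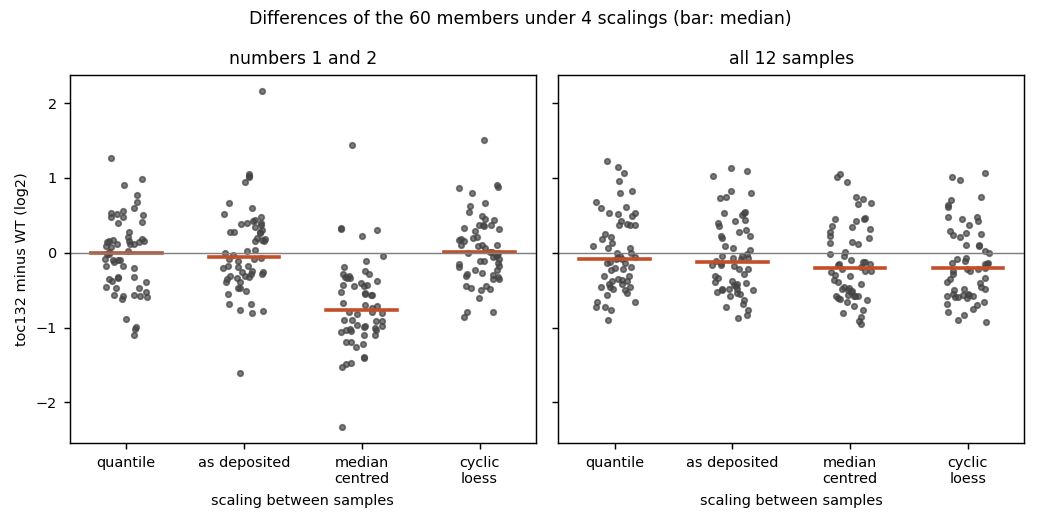
Difference toc132 minus WT (log2) of the 60 members, each a point, in numbers 1 and 2 and over all samples under 4 scalings between samples, with the median as a bar. In numbers 1 and 2 median centring shifts the median to -0.76, while the other 3 scalings leave it between -0.05 and 0.00.

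Agreement within a pair of numbers was close. The median gap between the 2 samples of a pair was 0.09 over the members and 0.17 over the 2907 probes. The members were chosen for brightness and those probes were not, so the 2 medians are given as a description. A gap of 1 or more was found in WT numbers 5 and 6 for 5 members (8.33%, where 9.49% of the 2907 probes had one), in toc132 numbers 5 and 6 for 3 members (5%, where 6.3% of probes had one), and for at most 1 member in any other pair. The genes named for such gaps were picked after their values were seen. AT3G51500 had 0.0306 and 2.50 in toc132 samples 1 and 2, against 0.00207 and 1.85 in WT samples 1 and 2, so number 1 was low in both groups. AT4G31530 had 17.6 and 32.4 in toc132 samples 5 and 6, against 24.4 and 63.3 in WT samples 5 and 6. AT3G04650 had 3.73 and 1.65 in toc132 samples 5 and 6, against 4.20 and 0.907 in WT samples 5 and 6. With AT4G21170, these are genes whose gap ran the same way in toc132 and WT of the same number.

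The pattern of the brightest member over the 12 samples was most like those of AT3G19370, AT3G08000 and AT4G18540, with Pearson's r of 0.896, 0.873 and 0.844, the highest among 586 other probes with a single gene. None of these is a member. Pairs of members had a median r of 0.03 over the 12 samples, with quartiles of -0.40 and 0.49. The values share the same samples and their close pairs, and are given as a description.

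Of the remaining members, AT1G01730 had 3.67, 4.16 and 5.56 in toc132, against 2.73, 4.04 and 5.03 in WT (0.38 ± 0.20, SE). The sugar kinase gene AT1G17160 differed by -0.08 ± 0.25 and the citrate synthase-related gene AT2G11270 by -0.14 ± 0.26 (SE). AT1G21660, with the DnaJ domain of co-chaperones, had 1.39, 1.57 and 1.83 in toc132, against 1.71, 1.91 and 5.73 in WT, where samples 5 and 6 (5.73 and 3.92) were the highest. The 30 members assigned to no functional list had a median difference of -0.11, with 10 higher and 20 lower in toc132 over all samples.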

How the data were processed

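The intensity values are as deposited by the authors, on a linear scale from 0 to 100. The array, background correction and scaling are not given in the sources used here. Groups and numbers come from the titles, and 0 columns were without a sample. Zeros were treated as missing, and log2 values were quantile normalised over all probes.

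The dropping rule was read as a difference of 1 or more in each of the pairs 3 and 4, and 5 and 6. Members, lists and named genes were chosen with earlier results of these data known. Genes were named as the 12 brightest, the called members, the extremes in difference and range, those at the limits and up to 4 of each list. Lists were assigned by hand from gene identifiers. RefSeq (TAIR10.1) served for names only (690 of 692 probes matched).

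Fits used limma 3.58.1 in R 4.3.3 (lmFit, eBayes, 2-sided, Benjamini-Hochberg, threshold 0.05) over probes with at least 4 values in each group, or with all 4 values for numbers 1 and 2, and were tested on simulated data. Deviations of same-numbered toc132 and WT samples correlated at 0.15 to 0.44 over 2907 probes, each above the limit of 0.1, and were highest with their own number in 11 of 12 samples, so a number was taken to mark a pair of samples. The main fits leave this pairing out, as does every SE and adjusted p not named as a block fit. With the number as a block, 21 of 3190 probes passed over all samples and 0 of 3105 in numbers 1 and 2. Figures used matplotlib 3.10.9 in Python 3.11.15.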

Additional observations from a re-analysis of the deposited data

Results flagged for a closer look

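In 4 of 86 groups of 6 samples checked (43 named members, both groups), 1 sample lay far from the other 5 on the normalised log2 scale. For 6 independent values chance flags about 1 in 20 groups. The samples of a pair of numbers lie close together, so that rate need not hold here. XERICO in toc132 number 5 stood at 2.68, where the others lay between 1.73 and 1.84, and in WT number 5 it stood at 3.50, where the others lay between 1.24 and 1.77. AT3G51500 in WT number 1 stood at -8.17, where the others lay between 0.44 and 1.83. AT4G38040 in toc132 number 6 stood at 0.68, where the others lay between 0.94 and 0.97.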

How the results depend on the processing

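Over all samples, the count of 0 probes passing in limma was 1 without the dimmest 25% and with a trended robust eBayes, 2 with an offset before log2, and 21 with the replicate block. It stayed 0 in the values as deposited, with median centring, with cyclic loess, with complete probes and with pairs of numbers as a random block. Leaving out each sample gave 0 to 419 probes (370 without WT 1, 419 without WT 2, 1 without toc132 3) and 0 to 3 members, and the replicate block gave 1 member. In numbers 1 and 2, the count of 585 probes and 18 members became 2111 and 30 in the values as deposited, 879 and 38 with median centring, 347 and 10 with cyclic loess, 969 and 30 with a trended robust eBayes, and 0 and 0 with the replicate block. It was 788 and 27 without the dimmest 25%, 699 and 25 with the offset, and 554 and 21 in a fit of 6 means to all samples. Leaving out 1 of the 4 samples gave 0 to 765 probes and 0 to 13 members; the lone sample is then assumed to vary like the other group. The members' median difference of -0.08 was -0.20 with median centring and -0.21 with cyclic loess. Between 55 and 58 of the 60 members were shared with other scalings, another ranking, the other reading of the dropping rule, or a normalisation of single-gene probes, which was chosen after seeing the data. The 8 called members followed were those of the 18 with the largest differences. They kept their direction in numbers 1 and 2 in 96 of 96 values, which follows in part from that choice. It is also fixed in part by the settings. Dropping the dimmest 25%, the trended robust eBayes, the replicate block and the fit of 6 means leave the difference itself unchanged. Stability is therefore not read from this count. AT2G46300, AT2G39360, DI21 and AT2G19870 no longer passed with median centring, and 0 passed with the replicate block. Among the called members not followed there, AT5G63290 (-0.32), XERICO (-0.24), AT1G50770 (-0.11) and AT3G19810 (-0.04) turned lower with median centring. The others not followed stayed lower. Of 688 values over all samples for named members, 685 stayed within 1 SD of the differences by number. Most of these alternatives leave out 1 of 12 samples, which moves a mean little beside that SD, so stability is not read from this count. Changes of direction fall within it too. AT2G46300 went from -0.23 to 0.07 without WT sample 3 and to 0.11 without WT sample 4. The causes were not tested. Signal over background is not given in the sources used here.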
